A study of Homo sapiens with 9 samples.

Results

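The mitochondrial carrier family SLC25 was examined in VCaP, a long established line of prostate cancer cells, after transfection with siRNAs against the long non-coding RNA *IGF1R-AS1*. Members were all gene symbols made of SLC25A and a number, which gave 48 of the 19918 symbols listed in the count files. Of these, 42 were expressed highly enough to be tested, among 12810 genes tested in all. The control group was transfected with a control siRNA, the si025 group with si025 and the si033 group with si033. Each of the 3 groups held 3 libraries, made from cells given 100 pmol of siRNA and harvested after 72 h. All groups were of this 1 cell line with no other treatment named in the labels. The degree of knockdown was not analysed here.

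Most SLC25 proteins sit in the inner mitochondrial membrane, which small charged molecules do not cross unaided. Each carrier exchanges or imports particular substrates, such as ADP for ATP, phosphate, citrate, amino acids, acylcarnitines, coenzymes or iron. These are built in the cytosol from nuclear genes and enter the membrane through the TIM22 translocase. In prostate epithelium, export of citrate from mitochondria is a well known feature of the tissue.

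Promoter sequences are shown for 6 members whose values the comparisons below turn on. *SLC25A4* and *SLC25A22* were higher and *SLC25A40* lower with both siRNAs, *SLC25A24* moved in opposite directions, and *SLC25A13* and *SLC25A36* were lower members with an E-box. They were chosen after their values were known. Each run is the 250 bases before the annotated start, 5′ to 3′ on the gene's own strand, from RefSeq on GRCh38.p14, with matches to the 4 motifs named in the next paragraph, on either strand, in capitals.
SLC25A4, chr4:185143016-185143265, plus strand: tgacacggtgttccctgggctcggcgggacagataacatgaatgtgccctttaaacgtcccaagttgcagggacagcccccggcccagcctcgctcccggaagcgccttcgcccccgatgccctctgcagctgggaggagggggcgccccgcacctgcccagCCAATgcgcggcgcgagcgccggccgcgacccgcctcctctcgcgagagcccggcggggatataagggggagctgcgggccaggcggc
SLC25A22, chr11:798282-798531, minus strand: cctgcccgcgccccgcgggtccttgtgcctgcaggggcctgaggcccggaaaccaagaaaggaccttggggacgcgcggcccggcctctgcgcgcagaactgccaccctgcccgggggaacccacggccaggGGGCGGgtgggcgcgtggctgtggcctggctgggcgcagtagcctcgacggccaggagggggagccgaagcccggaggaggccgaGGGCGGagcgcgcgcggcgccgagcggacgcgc
SLC25A40, chr7:87876361-87876610, minus strand: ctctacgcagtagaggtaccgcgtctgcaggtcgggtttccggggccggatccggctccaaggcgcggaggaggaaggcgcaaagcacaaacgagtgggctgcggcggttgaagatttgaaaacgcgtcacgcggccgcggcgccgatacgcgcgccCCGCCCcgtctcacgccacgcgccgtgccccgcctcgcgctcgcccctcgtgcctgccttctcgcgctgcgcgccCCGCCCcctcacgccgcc
SLC25A24, chr1:108200344-108200593, minus strand: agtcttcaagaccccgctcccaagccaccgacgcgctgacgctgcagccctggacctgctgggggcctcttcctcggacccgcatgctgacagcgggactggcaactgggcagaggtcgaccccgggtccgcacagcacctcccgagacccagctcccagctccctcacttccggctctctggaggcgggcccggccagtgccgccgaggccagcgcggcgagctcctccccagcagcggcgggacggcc
SLC25A13, chr7:96322099-96322348, minus strand: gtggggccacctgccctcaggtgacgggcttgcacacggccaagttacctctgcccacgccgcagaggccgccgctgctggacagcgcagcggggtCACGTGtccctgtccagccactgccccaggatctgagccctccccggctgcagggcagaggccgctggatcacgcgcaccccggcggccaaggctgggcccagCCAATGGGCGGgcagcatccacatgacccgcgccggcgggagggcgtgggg
SLC25A36, chr3:140941586-140941835, plus strand: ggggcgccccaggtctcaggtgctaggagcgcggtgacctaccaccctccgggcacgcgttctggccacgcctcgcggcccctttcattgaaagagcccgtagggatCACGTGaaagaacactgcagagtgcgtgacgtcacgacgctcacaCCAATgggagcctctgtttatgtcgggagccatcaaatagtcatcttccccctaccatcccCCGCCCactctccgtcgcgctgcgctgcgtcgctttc

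The E-box letters CACGTG, the core sequence bound by MYC and MAX proteins, were present in 7 of the 40 members with a promoter entry. Windows ran from 250 bases before to 50 after the start. This was 17.5% of members, beside 7.4% of 27305 promoters and 9.9% of 9948 promoters of tested genes. The 6 of 36 tested members with an E-box were *SLC25A13*, *SLC25A33*, *SLC25A36*, *SLC25A38*, *SLC25A46* and *SLC25A51*. Their median log2 fold change was -0.16 with si025 and -0.11 with si033, and that of the 30 members without one was 0.06 and 0.04. At an adjusted p under 0.05 in edgeR, 1 of the 6, *SLC25A46*, was higher and 3 were lower with si025. With si033, 0 were higher and 2 lower. Over all tested genes, 32.9% were higher and 28.8% lower with si025, and 26.9% and 27.8% with si033. With si025 the median was also lower with GGGCGG (-0.08, beside 0.43 without) and CCAAT (-0.08, beside 0.11), but not with TGCGCA (0.05, beside -0.01). With si033 the medians with and without were -0.0 and 0.06 for GGGCGG, 0.02 and -0.04 for CCAAT and 0.1 and -0.0 for TGCGCA. What lies behind these differences was not tested. The letters CCAAT, read by NF-Y, were in 45% of the 40 member promoters, 17 of 36 tested members and 36.7% of promoters of tested genes. For GGGCGG, a core of SP1 sites, these were 72.5%, 27 of 36 and 69.9%. For TGCGCA, a core of NRF1 sites, they were 12.5%, 3 of 36 and 13.6%. A match describes the letters in a window and is not a measured binding site.

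Library totals lay between 11649811 and 28492259 counts of read pairs, and 14735 to 15474 genes per library had at least 1 count. All 9 luminal prostate cancer markers examined were detected, with *KLK2* at 1520 to 3690 CPM, counts relative to normalised library size. Their summed level, of which *KLK2* was a large part, was 4950 to 5050 CPM in control, 7150 to 7520 in si025 and 4190 to 4390 in si033 libraries. By gene, 8 of the 9 were higher and 0 lower with si025, with a median log2 fold change of 0.33. With si033, 3 were higher and 4 lower, with a median of -0.02. All tested genes gave 32.9% higher and 28.8% lower with si025, and 26.9% and 27.8% with si033. The 9 markers of blood, endothelial, stromal and basal cells summed to 5.76 to 6.16 CPM in control, 6.93 to 8.75 in si025 and 4.9 to 6.11 in si033 libraries, and 2 of the 3 that could be tested were higher with si025. Of these markers, *CD3E* and *KRT5* had no counts. The part of these shifts in the values below was not tested. The study calls its replicates biological, but the sources used here do not say whether they were separate cultures, and p values measure the spread between these libraries.

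Among members whose level could be read, 3 carriers dominated the family. *SLC25A6*, whose level could not be read from these counts, enters the sums below only with its few counted pairs. In control cells the highest levels per exon length, in RPKM, which divides CPM by exon length, were 289.9 for *SLC25A3*, which brings phosphate into the matrix, 216 for *SLC25A5*, an ADP/ATP carrier, and 184 for *SLC25A39*, a glutathione carrier. The ranges of these 3 over the control libraries did not overlap. Together they held 57.8% ± 0.36 (SD, n = 3) of the summed RPKM of the family in control, 56.9% ± 0.56 in si025 and 58.5% ± 0.65 in si033 libraries. The citrate carrier *SLC25A1*, the dicarboxylate carrier *SLC25A10* and the pyrimidine nucleotide carrier *SLC25A33* followed at 56.9, 55.4 and 51.6 RPKM, and these 3 overlapped in their library values. The summed RPKM of all members was 1194 ± 11.8 in control, 1149 ± 33.3 in si025 and 1179.9 ± 19.3 in si033 libraries. As a share of raw library totals, corrected neither for length nor to normalised library size, the family took 0.286 to 0.289% in control libraries. It took 0.292 to 0.302% in si025 and 0.291 to 0.294% in si033 libraries, so each siRNA library lay above every control on that scale. The factors behind the normalised sizes were 0.9678 to 0.9838 in control and 1.0052 to 1.0175 in siRNA libraries. With normalised sizes that order did not hold: the si033 libraries lay under every control, and si025 libraries lay on both sides of the controls. In bulk RNA, fewer cells of a kind and less RNA per cell cannot be told apart.

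**Figure D1:**
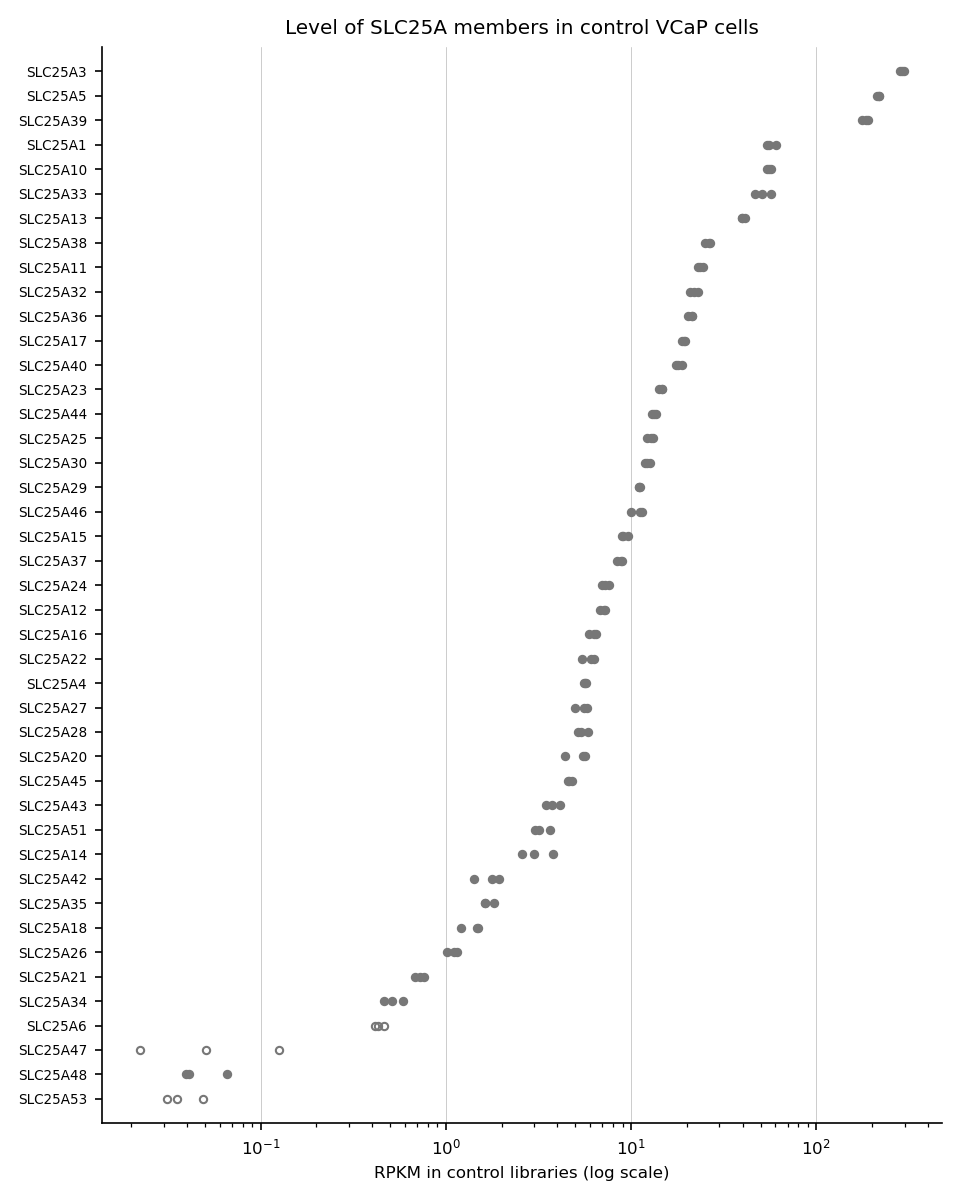
Level of SLC25A members with reads in every control library, in RPKM on a log axis, with 1 point per library. *SLC25A3*, *SLC25A5* and *SLC25A39* stand above the rest, and open symbols mark members that were not tested or, for *SLC25A6*, whose level cannot be read from these counts.

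At the other end, 6 members were too low to test. *SLC25A31*, the ADP/ATP carrier of the germ line, had 0 counts in all 9 libraries, which allows a level of up to 0.258 CPM in the shallowest and 0.105 CPM in the deepest library, for counting error only. *SLC25A52* also had 0 counts, but it is a near-identical copy of *SLC25A51*, and as pairs with several matches were not counted, its 0 sets no such limit. *SLC25A2* and *SLC25A41* had at most 1 count per library, *SLC25A47* had 1 to 5 and *SLC25A53* had 0 to 12. *SLC25A6*, an ADP/ATP carrier, had 12 to 38 counts, but the annotation lists it at the same place on X and Y, and read pairs with several matches were not counted. Of 19 symbols listed on both chromosomes, 1 had more than 100 counts in any library. Its values of 1.22, 1.38 and 1.27 CPM in control, 1.25, 0.992 and 1.42 in si025 and 0.989, 1.62 and 1.31 in si033 libraries therefore do not give its level.

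With si025, 28 of the 42 tested members passed an adjusted p of 0.05 against control in edgeR's quasi-likelihood test, and such genes are referred to as called. This was 66.7% of the family, beside 61.7% of all tested genes. Of these, 16 were higher and 12 lower, where all genes gave 32.9% higher and 28.8% lower. With si033, 20 members were called (47.6%, beside 54.8% of all genes), 8 higher and 12 lower, where all genes gave 26.9% and 27.8%. Shares of the family called thus lay near those of all genes. The median absolute log2 fold change was 0.22 with si025 and 0.16 with si033, and over all tested genes 0.26 and 0.22. With offsets for gene length and GC content, chosen after seeing the data, the split with si025 was 14 higher and 16 lower. All genes moved the same way, to 3531 higher and 4811 lower of 12118 tested, from 4220 and 3688 of 12810.

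**Figure D2:**
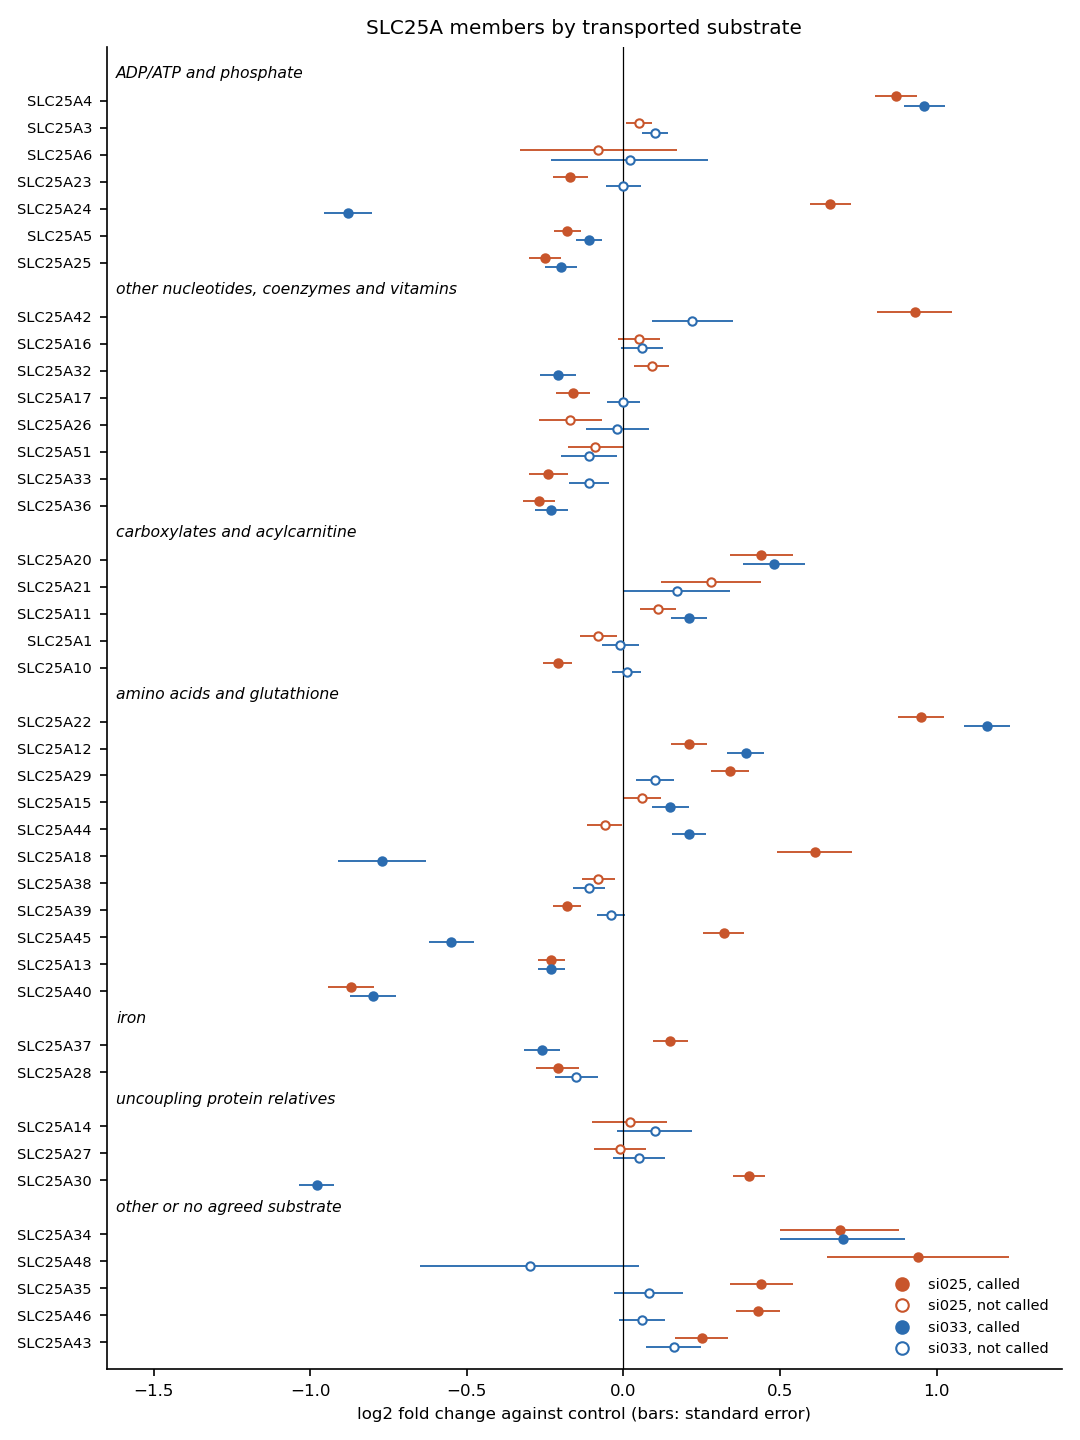
Log2 fold change of 41 of the 42 tested members against control, with standard errors, for si025 (orange) and si033 (blue), grouped by substrate. Filled symbols passed the adjusted p threshold, and *SLC25A24*, *SLC25A18*, *SLC25A45*, *SLC25A37* and *SLC25A30* lie on opposite sides of 0.

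Both siRNAs gave calls in the same direction for 11 members and in opposite directions for 5. *SLC25A4*, *SLC25A12*, *SLC25A20*, *SLC25A22* and *SLC25A34* were higher with both, and the 6 members lower with both included *SLC25A5*, *SLC25A13*, *SLC25A25*, *SLC25A36* and *SLC25A40*. Of all tested genes, 15.1% were higher and 14.6% lower with both. *SLC25A18*, *SLC25A24*, *SLC25A30*, *SLC25A37* and *SLC25A45* were higher with si025 and lower with si033, a pattern of 5.39% of all genes. The reverse pattern held for 0 members and 3.01% of all genes. The comparisons share the control libraries, so the calls are not independent.

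Among the ADP/ATP and phosphate carriers, 2 of 7 tested members were higher and 3 lower with si025, and 1 was higher and 3 lower with si033. For this and the other substrate groups below, all tested genes gave 32.9% higher and 28.8% lower with si025. With si033 they gave 26.9% higher and 27.8% lower. *SLC25A4*, the ADP/ATP carrier typical of heart and muscle, measured 24.6, 25.0 and 25.1 CPM in the control, 43.8, 48.6 and 43.99 in the si025 and 48.0, 52.7 and 46.1 in the si033 libraries. Both siRNA groups lay above every control library and overlapped each other. The log2 fold change was 0.87 (SE 0.066, adjusted p = 9e-11) with si025 and 0.96 (SE 0.066, adjusted p = 2.29e-11) with si033. *SLC25A5*, the ADP/ATP carrier of dividing cells, was at 287, 295 and 295 CPM in control, 254, 270.4 and 251 in si025 and 267, 281 and 266 in si033 libraries. All 6 siRNA libraries lay under the controls, by a smaller margin than *SLC25A4* lay above them. The log2 fold change was -0.18 (SE 0.043, adjusted p = 0.00112) with si025 and -0.11 (SE 0.043, adjusted p = 0.0381) with si033. The si033 call was lost with upper quartile factors (adjusted p = 0.117) and in 5 fits without control replicate 1, 2 or 3 or si033 replicate 1 or 3, with log2 fold changes from -0.11 to -0.09. *SLC25A5* also has processed pseudogenes, and pairs that matched these were not counted.

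The phosphate carrier *SLC25A3* measured 574, 592 and 605 CPM in control, 591, 639.6 and 604 in si025 and 633, 658 and 609.5 in si033 libraries. Its si025 libraries overlapped the controls and its si033 libraries lay just above them. It was not called, with log2 fold changes of 0.05 (SE 0.042) and 0.10 (SE 0.042) and adjusted p values of 0.313 and 0.0516. The calcium-regulated ATP-Mg/phosphate carriers *SLC25A23*, *SLC25A24* and *SLC25A25* moved apart. *SLC25A25* was lower with both siRNAs (log2 fold change -0.25 and -0.20). *SLC25A23* was lower with si025 (-0.17, adjusted p = 0.0114), a call lost without si025 replicate 3 (-0.12, adjusted p = 0.0945), and its si033 libraries overlapped the controls.

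*SLC25A24* gave the largest difference between the siRNAs of any tested member. It measured 30.9, 29.6 and 28.51 CPM in control, 46.8, 45.0 and 47.8 in si025 and 13.5, 16.4 and 17.2 in si033 libraries. The 3 groups did not overlap, with control in the middle. Its log2 fold change was 0.66 (SE 0.066, adjusted p = 1.01e-08) with si025 and -0.88 (SE 0.077, adjusted p = 1.46e-09) with si033. The direct contrast of si025 against si033 gave 1.54 (SE 0.072, adjusted p = 1.24e-14).

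The carriers of amino acids and glutathione held 5 higher and 3 lower members of 11 with si025 and 4 of each with si033. *SLC25A22*, which imports glutamate, measured 20.3, 20.9 and 18.1 CPM in control, 37.5, 39.1 and 36.4 in si025 and 48.2, 41.2 and 42.4 in si033 libraries. It had the largest rise with si033. With si025 its value lay close to those of *SLC25A48* (0.94, SE 0.29) and *SLC25A42* (0.93, SE 0.12). The si033 libraries lay above the si025 libraries. The log2 fold change was 0.95 (SE 0.073, adjusted p = 1.27e-10) with si025 and 1.16 (SE 0.073, adjusted p = 4.97e-12) with si033, and the contrast between siRNAs gave -0.21 (adjusted p = 0.00726). *SLC25A18*, the other glutamate carrier, measured 5.41, 6.67 and 6.61 CPM in control, 10.2, 9.82 and 9.06 in si025 and 3.54, 3.17 and 4.07 in si033 libraries. Control again lay between the siRNA groups, with no overlap. Its log2 fold change was 0.61 (SE 0.12, adjusted p = 0.000136) with si025, -0.77 (SE 0.14, adjusted p = 7e-05) with si033 and 1.38 (SE 0.13, adjusted p = 4.1e-09) between them.

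*SLC25A40*, a relative of the glutathione carrier *SLC25A39*, showed the largest fall with si025. It was at 56.1, 55.0 and 59.4 CPM in control, 31.8, 29.1 and 32.6 in si025 and 27.4, 33.0 and 36.0 in si033 libraries. Both siRNA groups lay far under control and overlapped each other. The log2 fold change was -0.87 (SE 0.073, adjusted p = 4.72e-10) with si025 and -0.80 (SE 0.073, adjusted p = 3.11e-09) with si033. *DBF4*, which overlaps it on the opposite strand and is counted apart by strand, fell by 0.22 and 0.45 (adjusted p = 0.00186 and 6.12e-07). *SLC25A39* itself measured 306, 316 and 290.4 CPM in control, 266, 278 and 259 in si025 and 304, 294 and 288 in si033 libraries. Only its si025 libraries lay clear of the controls, with a log2 fold change of -0.18 (SE 0.044, adjusted p = 0.00121). With offsets for length and GC content *SLC25A39* was called lower with si033 as well (-0.11, adjusted p = 0.0046).

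*SLC25A45*, a carrier of methylated amino acids, was at 25.9, 27.3 and 26.1 CPM in control, 34.7, 32.9 and 31.9 in si025 and 18.0, 16.2 and 19.3 in si033 libraries. The groups did not overlap, and the log2 fold change was 0.32 (SE 0.066, adjusted p = 0.000198) with si025 and -0.55 (SE 0.072, adjusted p = 9.76e-07) with si033. The si025 call was lost with offsets for length and GC content (0.07, adjusted p = 0.268). The aspartate/glutamate carriers of the malate-aspartate shuttle moved apart from each other: *SLC25A12* was higher (0.21 and 0.39) and *SLC25A13* lower (-0.23 and -0.23) with both siRNAs. The basic amino acid carrier *SLC25A29* was higher with si025 (0.34, adjusted p = 4.27e-05), a call also lost with those offsets (0.07, adjusted p = 0.172). *SLC25A44*, which imports branched-chain amino acids, was called higher with si033 (0.21) and not called with si025 (-0.06). The direct contrast gave -0.27 (adjusted p = 0.000168). With the offsets *SLC25A44* was called lower with si025 (-0.17, adjusted p = 0.00209). The ornithine carrier *SLC25A15* was higher with si033 (0.15, adjusted p = 0.04), a call lost in 7 of 18 alternatives, including DESeq2 (adjusted p = 0.113) and fits without control replicate 1 or 2 or si033 replicate 1 or 2, at 0.13 to 0.14. The glycine carrier *SLC25A38* was not called (-0.08 and -0.11), but was called lower with both siRNAs under the offsets (-0.17 and -0.15), and with si033 without si033 replicate 2 (-0.14, adjusted p = 0.0377).

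**Figure D3:**
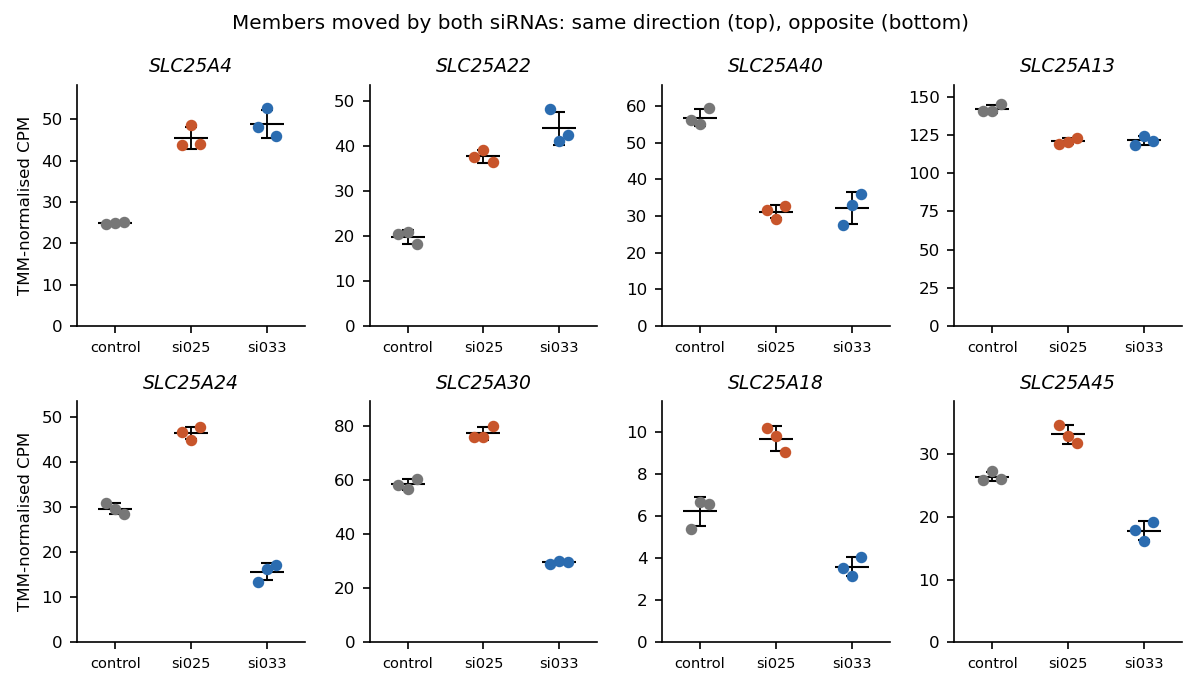
TMM-normalised CPM of 8 members per library, with group mean and SD (bars, n = 3). *SLC25A4*, *SLC25A22*, *SLC25A40* and *SLC25A13* moved the same way with both siRNAs, and *SLC25A24*, *SLC25A30*, *SLC25A18* and *SLC25A45* lay above control with si025 and below it with si033.

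*SLC25A30*, a relative of the uncoupling proteins, showed the largest fall with si033. It measured 58.2, 56.6 and 60.5 CPM in control, 75.8, 75.9 and 80.1 in si025 and 29.2, 30.2 and 29.7 in si033 libraries. The 3 groups were far apart, with control in the middle. The log2 fold change was 0.40 (SE 0.051, adjusted p = 3.76e-07) with si025, -0.98 (SE 0.056, adjusted p = 1.07e-12) with si033 and 1.38 (SE 0.055, adjusted p = 6.49e-16) between them. Its relatives *SLC25A14* and *SLC25A27* were not called, with log2 fold changes from -0.01 to 0.10.

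The iron importers differed from each other. *SLC25A37*, mitoferrin-1, measured 71.8, 68.4 and 73.0 CPM in control, 80.2, 75.9 and 81.2 in si025 and 59.7, 54.2 and 63.4 in si033 libraries. The groups did not overlap, with log2 fold changes of 0.15 (SE 0.056, adjusted p = 0.0232) and -0.26 (SE 0.058, adjusted p = 0.000655). The si025 call did not hold with DESeq2 (0.13, adjusted p = 0.0741), with offsets for length and GC content (0.01, adjusted p = 0.873) or without control replicate 2, si025 replicate 1 or si025 replicate 3 (0.12 to 0.14). *SLC25A28*, mitoferrin-2, was lower with si025 (-0.21, adjusted p = 0.0114), a call lost without control replicate 2 (-0.16) or si025 replicate 3 (-0.15). With si033 it was at -0.15 (adjusted p = 0.0628). It was called lower with si033 with the offsets (-0.22, adjusted p = 0.00365) and without control replicate 3 (-0.20, adjusted p = 0.0461).

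Carriers of other nucleotides, coenzymes and vitamins held 1 higher and 4 lower members of 9 with si025, and 3 lower with si033. The exception was *SLC25A42*, which carries coenzyme A. It was at 7.51, 6.89 and 5.49 CPM in control, 13.2, 12.8 and 10.9 in si025 and 7.09, 8.51 and 7.14 in si033 libraries. Only the si025 libraries lay apart from the others, with a log2 fold change of 0.93 (SE 0.12, adjusted p = 9.04e-07), beside 0.22 (SE 0.13, adjusted p = 0.163) with si033 and 0.70 (adjusted p = 2.54e-05) between them. The pyrimidine nucleotide carrier *SLC25A36* was lower with both siRNAs (-0.27 and -0.23). *SLC25A33* measured 82.0, 75.1 and 91.1 CPM in control, 65.7, 72.4 and 73.2 in si025 and 76.5, 81.5 and 74.0 in si033 libraries. Its si025 libraries lay under the controls (-0.24, adjusted p = 0.00255), a call lost without control replicate 3 (-0.15, adjusted p = 0.0529). The peroxisomal carrier *SLC25A17* was lower with si025 (-0.16) and the folate and flavin carrier *SLC25A32* lower with si033 (-0.21). *SLC25A16*, the S-adenosylmethionine carrier *SLC25A26* and the NAD carrier *SLC25A51* were not called. With offsets for length and GC content, *SLC25A51* was called lower (-0.22, adjusted p = 0.0207) and *SLC25A32* higher (0.13, adjusted p = 0.00795) with si025. Pairs that matched both *SLC25A51* and its copy *SLC25A52* were not counted, which limits the values of *SLC25A51*.

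With si025, 1 of 5 carboxylate and acylcarnitine carriers was higher and 1 lower, while si033 gave 2 higher members. *SLC25A20*, which brings acylcarnitines in for fatty acid oxidation, was higher with both siRNAs, by 0.44 (adjusted p = 0.000768) and 0.48 (adjusted p = 0.000436). *SLC25A1*, the citrate carrier, measured 108, 118 and 106 CPM in control, 98.7, 115 and 98.9 in si025 and 114, 103 and 112 in si033 libraries. All groups overlapped, and it was not called (-0.08, adjusted p = 0.247, and -0.01, adjusted p = 0.928). It was called lower with si025 without si025 replicate 2 (-0.16, adjusted p = 0.0162) and with offsets for length and GC content (-0.24, adjusted p = 1.41e-05). *SLC25A10* was at 125, 129 and 122 CPM in control, 110.3, 109.8 and 105 in si025 and 133, 124 and 124 in si033 libraries. It was lower with si025 (-0.21, SE 0.047, adjusted p = 0.000453), and its si033 libraries overlapped the controls. The oxoglutarate carrier *SLC25A11* was called with si033 only (0.21, beside 0.11), and *SLC25A21* with neither siRNA.

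All 5 tested members with another or no agreed substrate were higher with si025, beside 32.9% of all tested genes. With si033, 1 was higher, beside 26.9% of all tested genes. No shared substrate joins these members. *SLC25A34* measured 2.27, 2.61 and 2.05 CPM in control, 4.05, 3.87 and 3.18 in si025 and 4.37, 2.63 and 3.93 in si033 libraries, with log2 fold changes of 0.69 (SE 0.19, adjusted p = 0.00392) and 0.70 (SE 0.20, adjusted p = 0.00428). The lowest si033 library lay just above the highest control. *SLC25A48* was barely expressed, at 0.524, 0.507 and 0.85 CPM in control, 1.56, 1.29 and 1.15 in si025 and 0.33, 0.542 and 0.656 in si033 libraries. Its si025 rise of 0.94 (SE 0.29, adjusted p = 0.0081) was not called by DESeq2 (adjusted p = 0.064), and it overlaps *LOC107986453* on the same strand. *SLC25A46*, an outer membrane protein linked to mitochondrial shape, was higher with si025 (0.43, adjusted p = 1.93e-05), beside 0.06 with si033. With offsets for length and GC content it was called higher with si033 as well (0.18, adjusted p = 0.00312). *SLC25A35* was higher with si025 (0.44), a call lost with offsets for length and GC content (0.20, adjusted p = 0.0643). *SLC25A43* was higher with si025 (0.25, adjusted p = 0.015), but not with DESeq2 (0.22) or without control replicate 1 (0.21), control replicate 3 (0.23) or si025 replicate 3 (0.19).

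In the direct contrast of si025 against si033, 18 of 42 members were called (42.9%, beside 60.9% of all genes). Of these, 11 were higher with si025 (31.2% of all genes) and 7 lower (29.7%). The 5 members called in opposite directions were all among the 11. With offsets for length and GC content the split became 10 higher and 15 lower, while over all genes it went from 3993 higher and 3808 lower to 3416 and 4772. The median absolute difference between the siRNAs was 0.11 in the family and 0.24 over all genes.

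Related carriers that share substrates shifted in their proportions. These pairs were chosen with earlier results known, and shares are of the summed RPKM of both. *SLC25A4* made up 2.5% ± 0.015 (SD, n = 3) of *SLC25A4* and *SLC25A5* in control, 5.1% ± 0.1 in si025 and 5.2% ± 0.2 in si033 libraries. *SLC25A12* went from 14.9% ± 0.38 of the aspartate/glutamate pair to 19.3% ± 0.53 and 21.3% ± 0.26, and *SLC25A40* went from 9.0% ± 0.67 of its pair with *SLC25A39* to 5.8% ± 0.51 and 5.4% ± 0.83. In each of these 3 pairs, no siRNA library overlapped the controls.

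In other pairs the siRNAs differed. *SLC25A24* held 33.4% ± 0.62 of its sum with *SLC25A23* in control, 46.9% ± 2.0 in si025 and 21.1% ± 1.8 in si033 libraries, and 36.4% ± 1.0, 51.7% ± 1.3 and 25.7% ± 2.8 of its sum with *SLC25A25*. *SLC25A22* held 81.0% ± 2.4 of the glutamate pair in control, 83.9% ± 0.66 in si025 and 94.2% ± 0.80 in si033 libraries, while the sum of the pair was 7.34 ± 0.433, 13.5 ± 0.504 and 14.0 ± 1.14 RPKM. *SLC25A28* held 38.6% ± 2.3, 32.8% ± 2.0 and 40.2% ± 1.3 of the mitoferrins. *SLC25A33* held 71.0% ± 1.6, 71.6% ± 1.4 and 73.0% ± 1.7 of its pair with *SLC25A36*, with overlapping libraries. The smallest two-sided p of an exact permutation test of 3 against 3 libraries is 0.1, so no p is given for the shares.

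**Figure D4:**
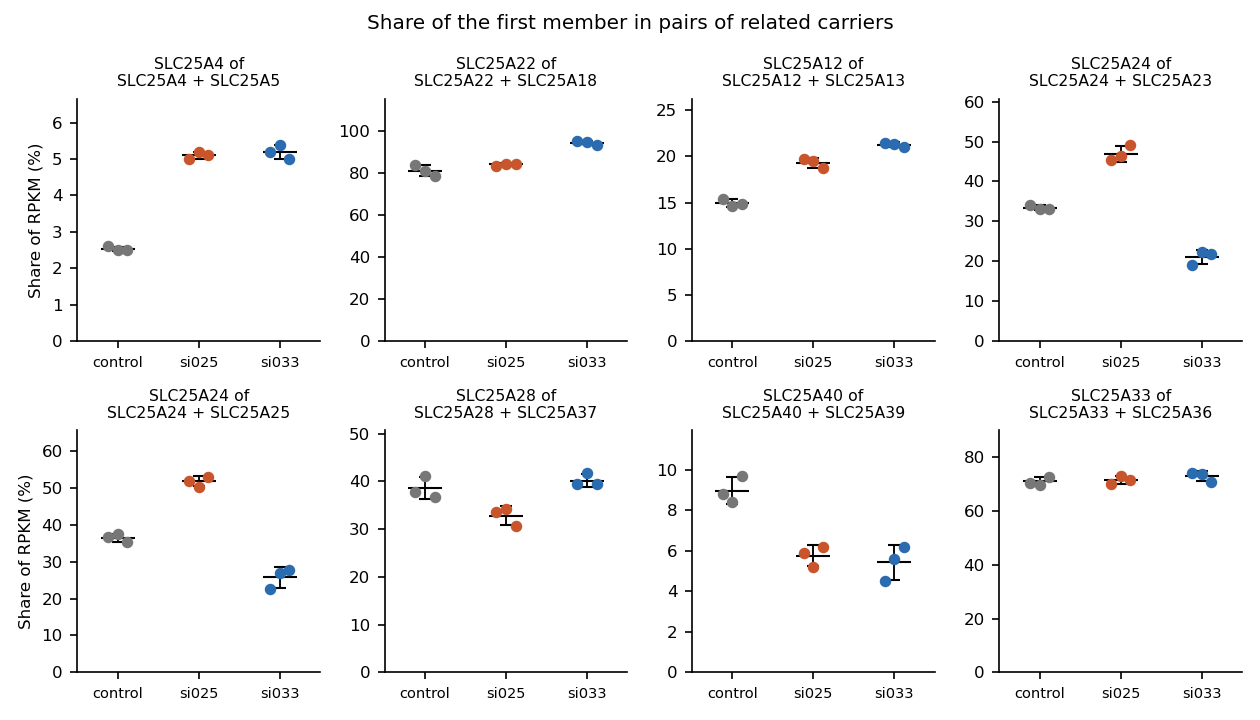
Share of the first member in the summed RPKM of 8 pairs of related carriers, in percent, per library with group mean and SD (bars, n = 3). *SLC25A4* went from 2.5% to 5.1% and 5.2% of its pair, and *SLC25A24* lay above control with si025 and below it with si033.

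Genes that work with the carriers were listed for context, with earlier results known. For the counts here, all tested genes gave 32.9% higher and 28.8% lower with si025, and 26.9% and 27.8% with si033. Of 9 tested genes of the TIM22 import route, 6 were lower and 1 higher with si025 and 5 lower and 2 higher with si033. *TIMM9*, an intermembrane space chaperone of carriers, was lower with both (-0.31 and -0.41), *TOMM70*, their outer membrane receptor, fell by 0.50 with si033, and *TIMM10B* was higher with both (0.54 and 0.53). The median over this list was -0.29 and -0.25, beside 0.02 and 0.003 over all tested genes. Of 6 enzymes of the malate-aspartate shuttle and citrate metabolism, 5 were lower with si025 and 4 with si033. Citrate synthase, *CS*, fell by 0.46 with si025, and *GOT1*, the cytosolic aspartate aminotransferase, fell by 0.88 with si033.

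Other mitochondrial groups gave different counts. Over all tested genes, 32.9% were higher and 28.8% lower with si025 (61.7% called), and 26.9% and 27.8% with si033 (54.8% called). Of 75 mitochondrial ribosomal protein genes, 8 were higher and 47 lower with si025 (73.3% called). With si033, 7 were higher and 33 lower (53.3% called), and the medians were -0.20 with si025 and -0.13 with si033. Of 75 respiratory chain and ATP synthase subunits, 5 were higher and 28 lower with si025, and 18 higher and 5 lower with si033. Among 15 other inner membrane transporters, 6 were higher and 4 lower with si025 (66.7% called). With si033, 5 were higher and 2 lower (46.7% called). *SFXN3*, a sideroflexin, was higher with both (0.63 and 0.50). The outer membrane channel *VDAC2* fell by 0.45 with si025, and *MTCH1*, a carrier-fold gene without an SLC25A symbol, was higher with si025 (0.19).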

How the data were processed

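RNA-seq of 9 VCaP libraries was analysed. The authors aligned paired reads to GRCh38 with HISAT2 2.1.0 (version from the submitters' processing notes), and per the file headers they made the deposited values with featureCounts 1.5.2 as raw counts of read pairs over exons, by gene symbol and on the sense strand. The headers name a RefSeq annotation and the methods GENCODE. Read pairs with several matches were not counted by default, and *IGF1R-AS1* was not analysed here. From the counts, edgeR 4.0.16 in R 4.3.3 was run as a quasi-likelihood test with TMM factors, the default filter, all 9 libraries in 1 fit with 3 group means, and Benjamini-Hochberg adjustment over 12810 genes. CPM used TMM library sizes and RPKM the exon length of the files. Totals of 11649811 to 28492259 counts limit the precision of members under about 1 CPM. Within groups, libraries differed by more than sampling noise (chi-square per degree of freedom 1.69 to 5.08). Alternatives were DESeq2 1.42.0, limma 3.58.1, other scaling, no filter, a replicate block, each library left out, and offsets for length and GC content.

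Values in every library are given for the 8 largest called changes per siRNA, members called in opposite directions, the ADP/ATP carriers, the phosphate carrier *SLC25A3*, and the 6 highest in control. Promoters came from RefSeq, with the 5′-most start kept where a symbol had several, and 40 of 48 members matched. The values of 1 member and 1 cell type marker are not reported here, and the member is left out of the figures. Members, lists and pairs were chosen with earlier results of these data known.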

Additional observations from a re-analysis of the deposited data

Results flagged for a closer look

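For 18 of 42 members the effects of si025 and si033 differed in edgeR's direct contrast (adjusted p under 0.05). This was 42.9% of the family, beside 60.9% of all tested genes. Each difference is given as the si025 minus the si033 log2 effect. The largest were 1.54 for *SLC25A24*, 1.38 for *SLC25A30*, 1.38 for *SLC25A18*, 1.23 for *SLC25A48*, 0.87 for *SLC25A45* and 0.70 for *SLC25A42*. Smaller positive differences were 0.41 for *SLC25A37*, 0.36 for *SLC25A35*, 0.36 for *SLC25A46*, 0.30 for *SLC25A32* and 0.23 for *SLC25A29*. Negative differences were -0.27 for *SLC25A44*, -0.23 for *SLC25A10*, -0.21 for *SLC25A22*, -0.18 for *SLC25A12*, -0.17 for *SLC25A23*, -0.16 for *SLC25A17* and -0.14 for *SLC25A39*. The calls of *SLC25A39* (without si025 replicate 3, -0.11), *SLC25A23* (without si025 or si033 replicate 3, -0.12 each), *SLC25A17* (without si033 replicate 3, -0.14), *SLC25A29* (length and GC offsets, 0.06) and *SLC25A35* (these offsets with the replicate block, 0.21, adjusted p = 0.0551) were lost in those fits. As both siRNAs were compared with the same controls, these differences are between 2 transfected groups only.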

How the results depend on the processing

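Across 18 alternatives and 3 contrasts, 2099 of 2267 member values kept direction and side of the threshold, 41 lost a call, 56 gained one and 71 changed sign. None of the 71 was called in either fit, and they lay between -0.1 and 0.1. Calls held in every alternative for 19 of 28 members with si025, 18 of 20 with si033 and 13 of 18 between siRNAs. Leaving out 1 library at a time gave 14 to 16 higher and 10 to 13 lower members with si025, 7 to 9 and 11 to 13 with si033, and 11 and 5 to 10 between siRNAs. With offsets for gene length and GC content, 15 members were lower with si025 than with si033, against 7, and also 15 with the replicate block added. Over all genes the lower calls went the same way, from 3808 to 4772 and 4785. The cause was not tested.

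Sign changes with these offsets were, for si025, *SLC25A27* 0.01, *SLC25A15* -0.02, *SLC25A11* -0.03 and *SLC25A14* -0.02, for si033, *SLC25A26* 0.004, *SLC25A35* -0.01, *SLC25A10* -0.04, *SLC25A17* 0.04 and *SLC25A6* -0.04, and between siRNAs *SLC25A38* -0.03 and *SLC25A51* -0.05. With the replicate block added they were *SLC25A27* 0.01, *SLC25A15* -0.01, *SLC25A11* -0.03, *SLC25A14* -0.02, *SLC25A26* 0.003, *SLC25A35* -0.01, *SLC25A10* -0.04, *SLC25A17* 0.04, *SLC25A6* -0.04, *SLC25A38* -0.03 and *SLC25A51* -0.04. Upper quartile factors gave *SLC25A27* 0.02 with si025 and *SLC25A26* 0.01, *SLC25A23* 0.03, *SLC25A1* 0.02 and *SLC25A17* 0.03 with si033. DESeq2 gave *SLC25A14* -0.004 with si025 and *SLC25A51* -0.003 between siRNAs, and the fit of 6 libraries *SLC25A17* 0.0002 with si033.

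Sign changes without 1 library had these ranges. With si025 they were *SLC25A14* -0.09 to 0.14, *SLC25A27* -0.05 to 0.05, *SLC25A51* -0.15 to 0.01 and *SLC25A6* -0.23 to 0.06. With si033 they were *SLC25A1* -0.04 to 0.04, *SLC25A10* -0.01 to 0.04, *SLC25A17* -0.03 to 0.03, *SLC25A23* -0.05 to 0.02, *SLC25A26* -0.08 to 0.03, *SLC25A46* -0.02 to 0.13, *SLC25A48* -0.61 to 0.10 and *SLC25A6* -0.10 to 0.15. Between siRNAs they were *SLC25A13* -0.03 to 0.01, *SLC25A16* -0.05 to 0.03, *SLC25A20* -0.10 to 0.01, *SLC25A21* -0.04 to 0.21, *SLC25A28* -0.08 to 0.01, *SLC25A34* -0.16 to 0.10, *SLC25A36* -0.10 to 0.01, *SLC25A38* -0.02 to 0.06, *SLC25A40* -0.17 to 0.04, *SLC25A51* -0.05 to 0.08 and *SLC25A6* -0.26 to 0.04.

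Replicate numbers are not stated to mark a shared culture or day. Deviations of same-numbered libraries correlated at -0.021 to 0.073, and those of different numbers at -0.12 to 0.106. With the replicate block, 16 members were higher and 12 lower with si025, 9 and 12 with si033, and 11 and 7 between siRNAs. It added the call of *SLC25A3* with si033, which also appeared in other fits, 9 of 18 in all. Depth limits *SLC25A48*.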

Other observations

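Some members lie beside or over other genes. *SLC25A26* and *LRIG1*, on opposite strands, had log2 fold changes of -0.17 and 1.06 with si025 (adjusted p = 0.164 and 3.47e-15). *SLC25A29* was higher with si025 (0.34) where *YY1*, on the opposite strand, was lower (-0.18, adjusted p = 0.00168). With si033, *SLC25A32* and *DCAF13*, also on opposite strands, were both lower (-0.21 and -0.24, adjusted p = 0.00362 and 0.000205). *SLC25A5* and *SLC25A43* lie 13.9 kb apart on chromosome X, with log2 fold changes of -0.18 and 0.25 with si025. These are values only, and no relation between neighbours was tested.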
